A study of Homo sapiens with 2 samples.

Results

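The list of PROX1 binding sites in SW480R cells holds a small set of long runs, stretches in which 10 or more peaks follow each other with no more than 10 kb between neighbouring edges. Of 23450 listed peaks, 22635 lay on the autosomes outside a 4 Mb stretch of chromosome 8, and 442 of these formed 37 such runs. Runs were chosen by the listed positions alone: peaks of chromosomes 1 to 22 were sorted by start, and each peak was joined to the run before it when it began within 10 kb of the furthest end reached so far. The stretch left out on chromosome 8 holds 281 peaks and 5 further runs by the same rule, which are not analysed here. What the choice used, which is the number of peaks and their distances, is given below as a description and not as a finding. The tags and folds also stand as descriptions, since a peak had to hold enough tags over input to be listed at all.

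PROX1 is a homeobox transcription factor that binds DNA directly and can raise or lower transcription through its partner proteins. It sets cell fate in the lymphatic endothelium, the liver and the lens, and in the gut it is known from a subset of colorectal tumours, where Wnt signalling can switch it on. Transcription factors often occupy several sites in a row across one regulatory region, and such dense stretches are a known feature of large enhancers.

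SW480R is a subpopulation of SW480, an established cell line from a human colorectal adenocarcinoma. The PROX1 library came from formaldehyde-fixed chromatin of these cells, cut with an enzymatic kit and precipitated with a goat antibody to human PROX1, and 3 separate precipitations were pooled into 1 library. The input library was DNA of these cells that had no antibody step. With 1 library of each kind, no spread between replicates could be measured, and every value below describes this pair of libraries. Each peak carries a tag count, which is the number of ChIP reads credited to it, and a fold over input, both as the authors gave them. The whole list holds 897512 tags, with at least 13 in each peak and a fold of at least 13.03. Intervals are exact (Clopper-Pearson) 95% binomial intervals that cover counting error only and count neighbouring peaks as independent. Positions are hg18, printed as listed. Neither an hg18 gene annotation nor an hg18 genome was used here, so runs are named by position and no sequence is shown.

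The 37 long runs covered 897.1 kb in all, or 0.0313% of the autosomal length, and held 1.95% of the 22635 autosomal peaks and 2.51% of the 846282 tags in those peaks. Most were only just long enough to be included: 13 runs had 10 peaks, 10 had 11, 3 each had 12 and 13, and 4 had 14. Single runs had 15, 16, 18 and 22 peaks. They lay on 16 of the 22 autosomes. Chromosome 2 carried the most, with 5 runs and 54 peaks, followed by chromosome 5 with 4 runs and 42 peaks. Chromosomes 1, 7, 12 and 17 carried 3 each, and chromosomes 4, 6, 9, 11 and 16 and the analysed part of chromosome 8 carried 0. The counts were not scaled to the length or the listed peaks of a chromosome, so they do not rank chromosomes by density.

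**Figure D1:**
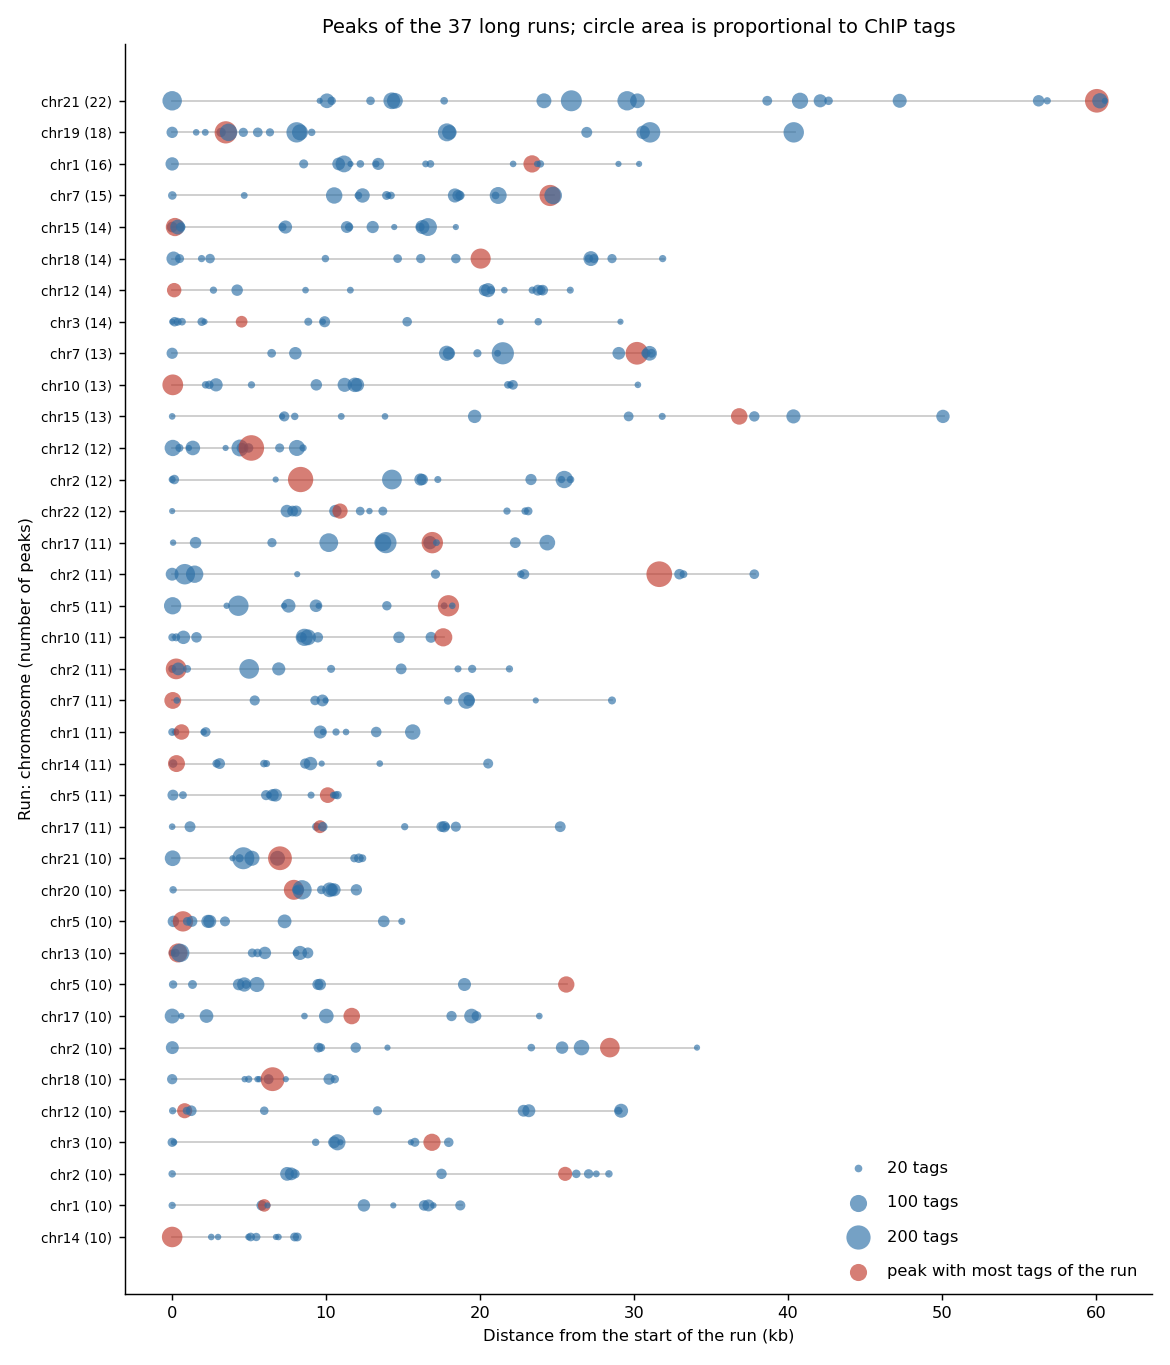
Each row is 1 of the 37 long runs, with its chromosome and number of peaks on the left, and each circle is a peak at its distance in kb from the start of the run, with an area proportional to its ChIP tags. The peak with the most tags of each run is red; 1 circle stands far above the rest in the bottom row (chr14) and in the sixth row from the bottom (chr18).

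The largest run, at chr21:35221171-35281811, was also the widest and held the most tags. Its 22 peaks spanned 60.64 kb and held 1515 tags. In order along the chromosome, the peaks held 129, 13, 74, 24, 25, 95, 86, 20, 76, 150, 128, 74, 33, 90, 59, 25, 67, 45, 18, 191, 80 and 13 tags. Peaks of over 100 tags therefore stood at the start, the middle and the end of the run, with peaks near the lowest listed count between them. The peak with the most tags held 12.6% of the run, the lowest such share among the 37. That peak, at chr21:35281211-35281251, had 191 tags but a fold of 14.73, while the highest fold of the run was 128.32, at a peak with 128 tags.

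The next run by size lay at chr19:43835651-43876091 and held 18 peaks with 1281 tags over 40.44 kb. Its peaks held 44, 15, 16, 30, 169, 105, 29, 32, 23, 141, 87, 19, 110, 72, 41, 63, 143 and 142 tags in order. Peaks of over 100 tags stood near the start, the middle and the end of this run too, and the top peak held 13.2% of the tags. Here the peak with the most tags, chr19:43839131-43839171 with 169 tags, also had the highest fold, 169.42. A group of 8 peaks near the start of the run lay with less than 1 kb between neighbours, the largest such group in any long run.

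The run at chr1:232791931-232822291 held 16 peaks and 552 tags over 30.36 kb, but with lower counts in most of them. Its median peak had 19.5 tags, against 53.5 in the run on chromosome 19 and 70.5 in the longest run on chromosome 21. The peaks held 61, 28, 55, 97, 13, 20, 16, 50, 16, 20, 15, 102, 14, 19, 13 and 13 tags in order. A pair of high peaks, with 97 and 102 tags, thus stood among peaks close to the listing floor, and the top one held 18.5% of the tags.

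The run of 15 peaks at chr7:92088411-92113251 held 801 tags over 24.84 kb, gathered toward its right end. The last 3 peaks held 98, 153 and 106 tags, against 13 to 92 in the 12 before them. Another run of the same chromosome, chr7:94937931-94969091, had fewer peaks, 13, but held 822 tags, the most after the runs on chromosomes 21 and 19 above. Its peaks held 43, 26, 54, 79, 52, 23, 16, 168, 55, 176, 29, 74 and 27 tags. The peak with 176 tags, chr7:94968111-94968151, had the highest fold of all 442 members, 176.44.

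The 4 runs of 14 peaks differed in both span and total. They lay at chr15:67823811-67842271 (691 tags over 18.46 kb), chr18:10048171-10080111 (564 tags over 31.94 kb), chr12:27493171-27519091 (463 tags over 25.92 kb) and chr3:100164031-100193191 (328 tags over 29.16 kb). The last of these was the weakest for its size, since its peaks ranged from 13 to 47 tags. The run on chromosome 18 was topped by a single peak of 138 tags, followed by peaks of 76 and 69, and its other 11 peaks held 18 to 31 tags.

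The remaining runs had 10 to 13 peaks. On chromosome 2 they began at 28435111, 54626511, 69836771, 134865671 and 170993511, and on chromosome 5 at 73563951, 114815151, 142179671 and 168516711. Chromosome 17 had runs from 53810171, 55260311 and 67919051, chromosome 12 from 74658091 and 91937571, chromosome 10 from 29234451 and 33463071, chromosome 14 from 53145051 and 53705851, and chromosome 1 from 165393171 and 205259511. Single further runs began at 4758491 on chromosome 3, 130229731 on chromosome 7, 72635331 on chromosome 13, 57316051 on chromosome 15, 10180811 on chromosome 18, 43833251 on chromosome 20, 36214651 on chromosome 21 and 27636491 on chromosome 22. Apart from the 13-peak run of chromosome 7 described above, they held between 320 and 816 tags each.

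Several long runs were neighbours of each other. Of the runs that shared a chromosome, 3 pairs lay less than 1 Mb apart. The closest pair was on chromosome 18, where 100.7 kb separated the run that began at 10048171 from the run that began at 10180811. On chromosome 14 the distance was 552.6 kb, between the runs that began at 53145051 and 53705851, and on chromosome 21 it was 932.8 kb, between those that began at 35221171 and 36214651. The other neighbouring runs were 1.43 Mb or more apart, and up to 95.4 Mb on chromosome 3.

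The surroundings of the runs also held many peaks. In the stretches from 10 to 100 kb beyond each edge, where the joining rule no longer acts, 284 peaks were listed in 6.56 Mb, or 43.3 per Mb (38.4 to 48.6, exact Poisson interval for counting error). Ground shared by both runs of chromosome 18 was counted once. The analysed autosomes as a whole held 7.90 per Mb, runs included. The number around a run ranged from 0 to 19, with a median of 7. The run at chr20:43833251-43845311 was the only one with none: its nearest listed peaks lay 159.9 kb to the left and 431.2 kb to the right. At the other extreme, the runs that began at 53705851 of chromosome 14 and 142179671 of chromosome 5 had 19 each.

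Long runs were longer than shorter runs but not more tightly packed. Their median span was 24.4 kb (interquartile range 17.6 to 29.2), against 10.1 kb (5.94 to 14.8) in the 430 runs of 5 to 9 peaks. The median gap between neighbouring edges was 980 bp in long runs (405 gaps), 880 bp in runs of 5 to 9 peaks (2121 gaps) and 940 bp in runs of 2 to 4 peaks (5790 gaps). Gaps of 200 bp or less made up 26.9% (22.7 to 31.5) of those in long runs, 26.9% (25.04 to 28.9) in runs of 5 to 9 peaks and 27.8% (26.7 to 29.0) in runs of 2 to 4. Gaps over 5 kb made up 15.6%, 16.0% and 20.1% in the same order. The rule sets the upper end of these distances in all 3 classes, so only the shape below 10 kb is informative, and the curves of the spacing plot lie close together below 1 kb.

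**Figure D2:**
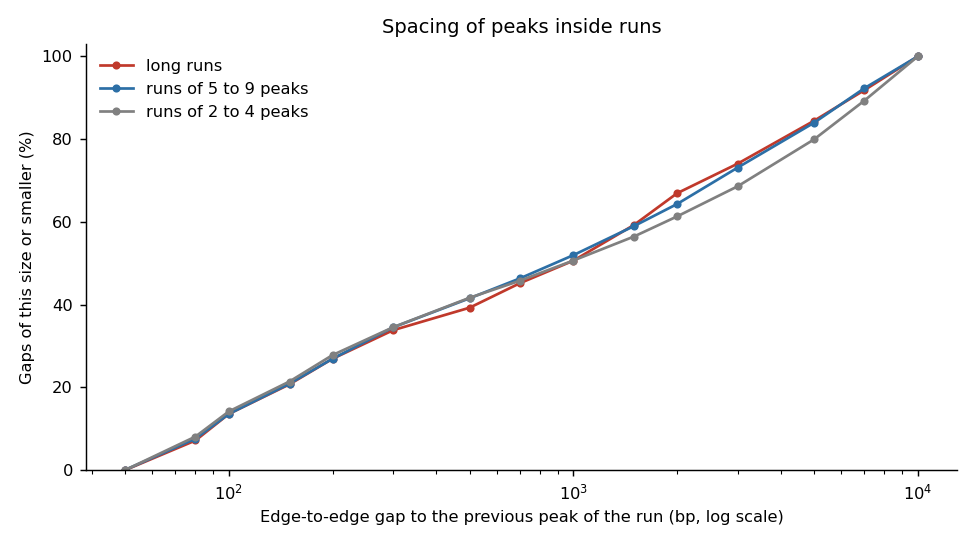
The horizontal axis is the edge-to-edge gap between neighbouring peaks of a run in bp, on a log scale, and the vertical axis the percentage of gaps of that size or smaller, for long runs, runs of 5 to 9 peaks and runs of 2 to 4 peaks. The 3 curves nearly coincide up to 1000 bp, where they reach 50.6%, 51.96% and 50.7%.

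Spacing within a run was uneven. The smallest gap in long runs was 80 bp, 13.6% of gaps (10.4 to 17.3) were 100 bp or less, and the largest in a run had a median of 7.30 kb. Taking peaks less than or equal to 1 kb apart as 1 place, the 442 peaks fell into 237 places, of which 131 held a single peak and 106 held 2 or more. A run had a median of 6 places, with a lowest number of 3 and a highest of 14. The run on chromosome 21 with 22 peaks had the 14 places. How many distinct binding sites a place stands for was not tested.

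The extremes of span illustrate the difference. After the largest run, the widest was chr15:57316051-57366191, whose 13 peaks spread over 50.14 kb with gaps of up to 9960 bp and fell into 10 places. Its peaks held 15, 13, 35, 19, 16, 15, 61, 33, 17, 93, 37, 68 and 61 tags, so the right part of the run held the higher counts. The narrowest was chr14:53145051-53153211, with 10 peaks in 8.16 kb, followed by chr12:74658091-74666631, with 12 peaks in 8.54 kb and only 3 places. The run on chromosome 12 was the densest in tags as well, with 734 in its 12 peaks, or 85.9 per kb, against a median of 24.98 per kb over the 37 runs.

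Member peaks held more tags than peaks that stood alone. Their median was 32.5 tags (interquartile range 19 to 62.8), against 31 in runs of 5 to 9 peaks, 28 in runs of 2 to 4 and 22 in the 9877 single peaks. The median fold was 22.22 in long runs, 22.05 in runs of 5 to 9, 20.05 in runs of 2 to 4 and 18.04 in single peaks. Strong peaks, here those at 2 times the lowest listed fold or more (26.06), made up 40.7% of members (36.1 to 45.5), 39.0% (37.1 to 40.9), 34.3% (33.4 to 35.3) and 24.1% (23.3 to 24.95) in the same order. Inferred input (described below) differed too. Among peaks with a whole value it was 2 or more in 25.2% of members (21.1 to 29.8) and 28.6% in runs of 5 to 9. It was so in 24.1% in runs of 2 to 4 and 17.5% of single peaks (16.8 to 18.3). The part of local input in the tag difference was not tested. The differences between classes were not tested either, since peaks of 1 library are not replicates.

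**Figure D3:**
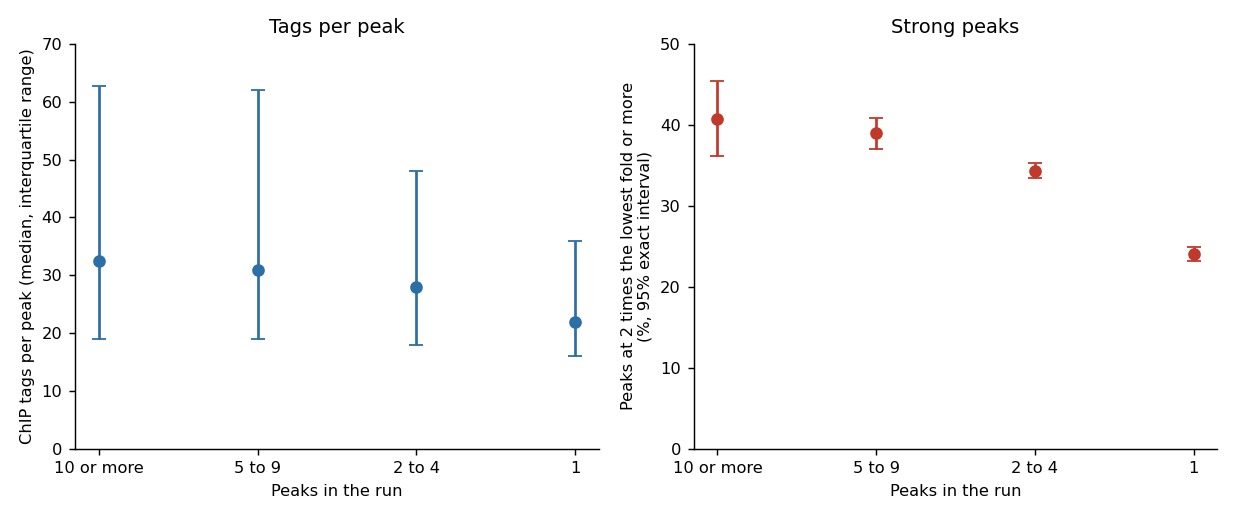
The left plot gives the median number of ChIP tags per peak, with the interquartile range as the bar, and the right plot the percentage of peaks at 2 times the lowest fold or more, with exact 95% intervals, for peaks in runs of 10 or more, 5 to 9, 2 to 4 and 1. Medians were 32.5, 31, 28 and 22 tags and percentages 40.7%, 39.0%, 34.3% and 24.1%.

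The highest peaks of the list were not in long runs. The member with the most tags had 225, while runs of 5 to 9 peaks reached 496, runs of 2 to 4 reached 532 and single peaks reached 515. Peaks of 100 tags or more made up 10.6% of members (7.92 to 13.9). The share was 11.1% (9.94 to 12.4) where runs had 5 to 9 peaks, and 2.99% (2.66 to 3.34) among single peaks. Peaks of 13 to 19 tags, the low end of the list, made up 26.2% of members (22.2 to 30.6). Here the share was 26.0% (24.3 to 27.7) where runs had 5 to 9 peaks, and 43.6% (42.6 to 44.6) among single peaks. On both counts long runs stood close to runs of 5 to 9 peaks. In width, 58.4% of members were 40 bp, 10.6% were 60 bp and 31.0% were 80 bp or wider, against 56.7%, 16.8% and 26.5% of single peaks. These shares were 58.8%, 11.8% and 29.3% in runs of 5 to 9 peaks, and 57.4%, 13.6% and 29.0% in runs of 2 to 4. The widest member spanned 340 bp.

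The 5 members with the most tags came from 5 different runs. The first was chr2:28466691-28466831 with 225 tags, followed by chr12:74663231-74663271 with 223 and chr2:69845111-69845151 with 218. Next were chr18:10187331-10187371 with 194 and chr21:36221651-36221691 with 193. None of these had one of the 5 highest folds, since theirs lay between 16.21 and 72.85.

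The 5 highest folds of the members stood in another set of runs. After the peaks of chromosome 7 (176.44) and chromosome 19 (169.42) described above came chr17:53827031-53827131 with a fold of 156.39 and 156 tags. Then followed chr5:168534611-168534731 with a fold of 154.38 and 154 tags, and chr10:33463071-33463191 with a fold of 147.37 and 147 tags. In each of these 5 the fold was close to the tag count, which is what the authors' ratio gives at the lowest input.

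Tags in a long run neither gathered in 1 summit nor spread evenly. The total per run had a median of 512 tags (interquartile range 402 to 691, range 320 to 1515). The top peak held a median of 21.4% of its run (range 12.6% to 48.0%), where equal peaks would each have held a median of 9.09%. A top peak cannot hold less than the equal share, so only the size of the excess is descriptive. The 3 peaks with the most tags together held a median of 50.4%. In 16 runs 3 peaks were needed to reach 50% of the tags, in 12 runs 4, in 5 runs 2, in 3 runs 5 and in 1 run 6. The inverse Simpson index, which is the number of equally strong peaks that would give the same concentration, had a median of 67.0% of the number of peaks (range 37.4% to 87.7%). In runs of 5 to 9 peaks the median was 71.3%, so by this measure tags were uneven there too. The median Gini coefficient of tags, where 0 is even, was 0.374 in long runs and 0.331 in those shorter runs. The lowest values that the effective share can take fall as a run gains peaks, so these medians do not rank the classes.

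**Figure D4:**
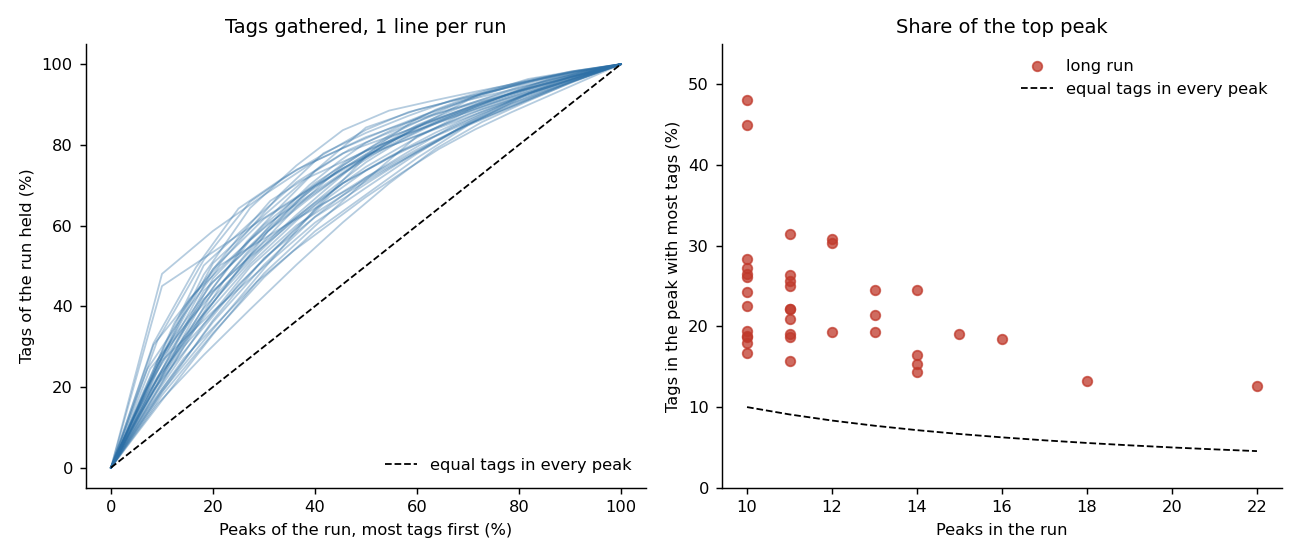
The left plot shows, for each long run, the percentage of its tags held as peaks are added from the one with the most tags downward, and the right plot the percentage held by the top peak against the number of peaks; the dashed lines mark equal tags in every peak. All 37 runs lie above the dashed line, which the ordering by tags forces wherever peaks are unequal. In the right plot, 2 runs of 10 peaks, at 45.0% and 48.0%, stand apart from the other 35, which reach 31.5% at most.

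The spread of tags within a long run was far wider than counting error. The coefficient of variation of tags within a run had a median of 0.727, against 0.147 for counts of the same mean that differ by counting alone. The lowest value in any long run was 0.393. The variance was a median of 26.0 times the mean, and at least 5.00 times in every long run. Runs of 5 to 9 peaks had medians of 0.697 against 0.151, and a variance of 21.7 times the mean. Differences in level between runs were small beside the spread within them, although run medians ranged from 19.5 to 70.5 tags. Of the variance of log2 tags, 4.0% lay between runs and the rest between peaks of the same run. The standard deviation within a run was 1.04 on the log2 scale. In runs of 5 to 9 peaks these values were 5.40% and 1.05. A member peak was thus about as variable within its run as members are overall (standard deviation 1.06 on the log2 scale).

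Most runs had a close runner-up to the top peak. The top peak held a median of 124 tags and the second 82, and their ratio within a run had a median of 1.17. In 21 of 37 runs (56.8%, 39.5 to 72.9) the top was less than 1.25 times the second. It was 2 times the second or more in 5 runs (13.5%, 4.54 to 28.8), against 116 of 430 runs of 5 to 9 peaks (27.0%, 22.8 to 31.4). The ratio falls by construction as a run gains peaks, so this difference in itself says nothing particular about long runs.

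By the tags of all members, 2 long runs had a summit at 3 times the second peak or more. At chr14:53145051-53153211 the first peak held 144 tags and the other 9 held 15, 14, 15, 26, 24, 13, 15, 27 and 27, so that it carried 45.0% of the run at 5.33 times the second. At chr18:10180811-10191411 the peaks held 36, 14, 18, 14, 14, 34, 194, 13, 43 and 24 tags, and the seventh carried 48.0% at 4.51 times the second. Neither summit was outstanding by fold. The peak with 144 tags had a fold of 14.44 and the peak with 194 tags one of 16.21, both near the lowest fold of the list, while other peaks of these runs reached 27.07 on chromosome 14 and 34.08 on chromosome 18.

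The input tags behind a peak can be inferred from its tags and fold, and whole values were obtained for 404 of the 442 members. The lowest inferred value, 1, cannot be told from 0. The inferred input was 10 for the summit on chromosome 14 and 12 for that on chromosome 18, and no other peak of these runs with a whole value had more than 2. The highest inferred input of any member was 13, at the top peak of the largest run on chromosome 21. Among top peaks with a whole value, 19 of 31 (61.3%, 42.2 to 78.2) had an inferred input of 2 or more, against 83 of 373 other members (22.3%, 18.1 to 26.8). In runs of 5 to 9 peaks the shares were 66.1% (61.0 to 70.9) and 21.4% (19.6 to 23.3). The list's lowest fold forces part of this, since a peak with an inferred input of 2 was listed only from 26 tags and one with an input of 5 only from 65. Among the members at an inferred input of 1, an alternative chosen after seeing the data, other runs had the dominant summit. This filter takes out the summits on chromosomes 14 and 18 themselves, so their loss was fixed in advance. The top was then 1.04 times the second in the run on chromosome 14 and 1.42 times in that on chromosome 18. It was 3 times the second or more in 2 other runs: 5.13 times in the run from 168516711 of chromosome 5, with 60.4% of the tags, and 3.86 times in the run from 205259511 of chromosome 1. Among all members these ratios were 1.09 and 1.01. The filter had left out peaks of 141 and 102 tags from the run on chromosome 5, and the top peak of 82 tags from that on chromosome 1. Runs at 2 times or more numbered 9 in this subset, where runs keep fewer peaks, against 5 among all members. By fold, also chosen then, the chromosome 5 run alone reached 3 times, at 3.02. The part that local input, including the number of copies of a region, plays in the tags of these summits was not tested.

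**Figure D5:**
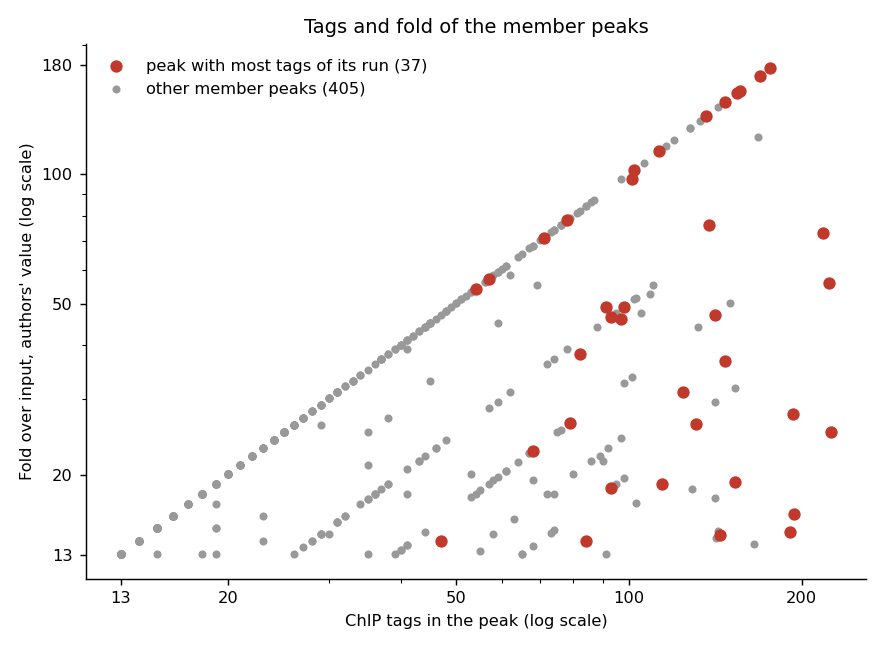
The horizontal axis is the number of ChIP tags and the vertical axis the authors' fold over input, both on log scales, for the peak with the most tags of each long run (red, 37 peaks) and the other members (grey, 405 peaks). The upper diagonal holds peaks at the lowest inferred input; 8 of the 37 top peaks lie at a fold under 20 although each holds at least 47 tags.

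Tags and fold thus often named different peaks as the summit. The peak with the most tags was alone at the highest fold in 13 of 37 long runs (35.1%, 20.2 to 52.5) and in 205 of 430 runs of 5 to 9 peaks (47.7%, 42.9 to 52.5). Ties bring these to 14 and 206, the tie among long runs being at a fold of 76.19 in the run from 10048171 of chromosome 18. In the largest run the top peak by tags ranked 20 of 22 by fold, and in the run of 15 peaks on chromosome 7 it ranked 13. Top peaks had a median fold of 47.12 (range 14.03 to 176.44), against 21.55 in the other members. Measured by fold, the effective number of peaks had a median of 72.1% of the peaks in a run, and the top fold was a median of 1.31 times the second. The same medians were 82.6% and 1.37 times in runs of 5 to 9 peaks.

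By the effective share of tags, the most even runs were one of 11 and one of 10 peaks. At chr17:55260311-55285551 the 11 peaks held 15, 41, 24, 57, 31, 18, 38, 44, 19, 35 and 40 tags, and the effective number of peaks was 9.65, or 87.7%. At chr5:73563951-73589631 the 10 peaks held 24, 27, 46, 70, 26, 78, 41, 46, 58 and 91 tags, with an effective share of 84.2%. In neither run did a peak reach 100 tags. The order depended on the measure. By the Gini coefficient of tags, where 0 is even, the first of these was lowest at 0.210, and the run from 100164031 of chromosome 3 came next at 0.239, ahead of 0.243 in the run on chromosome 5. By fold the highest effective shares were 91.8% and 90.3%, in the runs from 53145051 of chromosome 14 and 10180811 of chromosome 18, which were the least even by effective share of tags.

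The place with the most tags held a median of 37.2% of its run (range 18.7% to 75.9%), where equal places would each have held a median of 16.7%. A place holds at least its own top peak, so this share is at least that of the top peak by construction. In 5 runs it held over 50%. At chr5:142179671-142194631 a group of 7 peaks at the left end held 75.9% of the tags, with 45, 141, 26, 41, 59, 58 and 34. At chr18:10180811-10191411 a group of 7 peaks, among them the summit of 194 tags, held 74.5%. At chr13:72635331-72644191 the leftmost 4 peaks, with 17, 25, 124 and 116 tags, held 55.1%. At chr12:74658091-74666631 a group of 5 peaks held 54.6%, and at chr20:43833251-43845311 a group of 4 peaks with 136, 25, 40 and 128 tags held 54.4%. The top peak lay in the place with the most tags in 22 of the 37 runs.

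Close neighbours had slightly more tags than other members. The 103 members with a neighbour within 100 bp had a median of 41 tags (interquartile range 24.5 to 67), against 31 (20 to 68.5) where the nearest lay over 100 and up to 300 bp away, 27 (18 to 57) up to 1 kb and 32 (18 to 58.5) up to 10 kb. In runs of 5 to 9 peaks the medians were 39, 32, 29 and 27. The tag counts of neighbours within 100 bp had a Spearman correlation of 0.22 over 55 pairs in long runs, 0.23 over 288 pairs in runs of 5 to 9 peaks and 0.29 over 821 pairs in runs of 2 to 4. For neighbours farther apart it lay between -0.05 and 0.07 in every class. The pairs share 1 library and partly the same peaks, and the window in which tags were counted is not stated in the list or the labels, so whether close peaks share tags was not tested.

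The top peak often lay near an end of its run. In 20 of 37 long runs (54.1%, 36.9 to 70.5) it was found in the outer 10% of the span at either end, where 163 of all 442 members lay (36.9%, 32.4 to 41.6). The intervals overlap. In runs of 5 to 9 peaks the shares were 55.3% (50.5 to 60.1) of top peaks and 53.5% (51.5 to 55.4) of all peaks. The top peak was the very first or last of its run in 6 of 37 long runs (16.2%), close to the 16.7% of members that are end peaks. By fold, the top peak lay in the outer 10% in 15 of 37 runs (40.5%, 24.8 to 57.9). None of these shares was tested against another.

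The threshold of 10 peaks cuts through a continuous range. The 13 runs just inside it, with 10 peaks, had a median of 463 tags (320 to 707) over 18.0 kb (8.16 to 34.1). The 24 runs just outside it, with 9 peaks, had a median of 457 tags (246 to 652) over 16.6 kb (6.18 to 33.9). The top peak held a median of 24.2% of the tags in the runs of 10 peaks and 28.3% in those of 9.

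Over the 37 runs, the tag total followed the number of peaks loosely and the span hardly at all. The Spearman correlation of tags with the number of peaks was 0.45 and that with the span 0.24. The number of peaks enters both the total and the rule, so these values describe the set only.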

How the data were processed

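Peaks of 1 PROX1 ChIP-seq library against 1 input library were used as the authors deposited them, on hg18 per the submitters' processing notes. The list has no header, so columns were read from their values: whole-number tag counts, not normalized, a fold ratio of ChIP over input, and a p-value of at most 0.00099, all as deposited. Aligner, peak caller and threshold: not given in the sources used here. Left out were 501 peaks of chromosomes X and Y, 33 mitochondrial peaks and 281 peaks of a 4 Mb stretch of chromosome 8. Inferred input was computed from each peak as its tags over its fold, scaled by 1.0025, the value that brings the lowest input to 1, and was used only where whole within 0.02 (91.4% of members). Full depth of either library is unknown. Reads carry no molecular identifiers. The members and all measures were chosen with earlier results of these data known. Runs picked by rule for description were the 5 with the most peaks (ties included), the 3 with the most tags, and the 2 widest and 2 narrowest. Also picked were the 2 with the highest and 2 with the lowest share in the top peak. Of these, the runs of 14 and 15 peaks and the next-to-narrowest run are given without the tags of every peak. Peaks picked by rule were those with the 5 highest tag counts and folds. The other runs and peaks named were chosen after their values were seen. No test was run. The run finding was tested on simulated data. Autosome lengths came from GenomeInfoDb 1.38.1. Python 3.11.15, numpy 2.4.6, pandas 2.3.3, scipy 1.17.1 and matplotlib 3.10.9 were used. Alternatives were other joining distances, run sizes, a stricter fold, merged peaks, lowest-input peaks only and fold in place of tags.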

Additional observations from a re-analysis of the deposited data

How the results depend on the processing

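The number of long runs depended on every choice that builds them, while tags per run and their evenness moved less. The runs numbered 37, with 442 peaks. Joining within 5 kb gave 12 runs with 129 peaks, and joining within 20 kb gave 103 with 1309. The better-ranked peaks by fold (19.05 or more) gave 6 runs with 70 peaks. Asking for 8 peaks gave 87 runs with 866, and asking for 15 gave 4 with 71. Merging peaks within 1 kb first gave 3 runs with 34 places. The median span of 24.4 kb became 10.98 kb at 5 kb, 44.6 kb at 20 kb, 17.6 kb with 8 peaks, 35.4 kb with 15 and 50.1 kb with merged peaks. The median gap of 980 bp became 520 bp at 5 kb, 1510 bp at 20 kb, 1380 bp with the better-ranked peaks and 3180 bp with merged ones. Median tags per peak, 32.5, became 27 at 5 kb, 56 with the better-ranked peaks, 43 with 15 peaks and 62 with merged ones. Median tags per run, 512, became 749 with the better-ranked peaks and 1041 with 15. The median share of the top peak, 21.4%, became 25.8% at 5 kb, 25.7% with 8 peaks and 15.8% with 15. The median effective share, 67.0%, became 57.8% at 5 kb and 75.2% with the better-ranked peaks. Among the 302 members at an inferred input of 1, an alternative added after seeing the data, median tags were 24.5, the top share 30.0% and the effective share 74.99%. Fold in place of tags, also added then, gave an effective share of 72.1%. Fewer peaks enter under stricter settings by construction; other causes were not tested. The remaining medians stayed within the order-statistic 95% interval of the main median. Of the 37 runs, 12 still had 10 or more peaks in 1 run at 5 kb and 6 with the better-ranked peaks. No paired analysis was possible because there is 1 library of each kind. Peaks below the listing floor are not seen, so evenness describes listed peaks only.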
